A study of Zea mays with 6 samples.

Results

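The 5 glossy genes described here are maize genes of very-long-chain lipid and surface wax synthesis: gl1 (Zm00001d020557), gl2 (Zm00001d002353), gl4 (Zm00001d051787), gl8 (Zm00001d017111) and gl26 (Zm00001d008622). They were taken by identifier from the 31470 genes listed in each library, and all 5 were found there. Gene names follow maize nomenclature and are not in the files. A RefSeq gene table held 3 of the 5 names (gl1, gl2 and gl8), on the chromosome where the files place the identifier, and did not list the identifiers themselves.

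RNA of mature maize anthers (line B104) was sequenced in 3 wild-type libraries (WT) and 3 libraries of plants homozygous for mutations in both ZmCOI2a and ZmCOI2b (MT, genotype ZmCOI2a-/-,ZmCOI2b-/-). COI proteins are F-box receptors for the hormone jasmonate, and the series title links both genes to the opening of the anther and to the fertility of the male gametophyte. The comparison asked how far glossy transcripts differ between these anthers. The labels do not describe the mutant alleles. The transcripts of ZmCOI2a and ZmCOI2b and of anther marker genes were not analysed here, and neither genotype nor tissue was checked against them.

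Plant surface wax is made in epidermal cells from fatty acids that an enzyme complex of the endoplasmic reticulum, the fatty acid elongase, lengthens in repeated cycles. The very long chains are then turned into alkanes, alcohols, aldehydes and esters that coat the cuticle. In maize, glossy mutants are recognised by seedling leaves that lack the dull, water-shedding wax bloom. The anther also carries a cuticle on its outer surface, and very-long-chain lipids enter the pollen coat. Whole anthers were sampled, so fewer cells of a type and less RNA per cell cannot be told apart.

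All 5 genes were expressed in every library, at low to middle levels. The unit is FPKM, fragments per kilobase of counted gene length, scaled to the reads counted on genes in a library, which allows levels of different genes to be set side by side. At depths of 16845656 to 17759978 reads, 1 read in a gene of 1000 bp is worth 0.0563 to 0.0594 FPKM. Over the 6 libraries the mean level was 14.2 ± 5.5 FPKM for gl2 and 10.1 ± 3.3 for gl1 (SD, n = 6). It was 7.11 ± 2.94 for gl4, 5.43 ± 1.65 for gl8 and 3.51 ± 1.04 for gl26. Among the 18984 tested genes, those with at least 1 FPKM in at least 3 libraries, 71.7% had a lower mean than gl2 and 33.4% a lower mean than gl26.

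Neighbours in this order did not separate beyond their spread. The level of gl2 was above that of gl1 in 5 of 6 libraries, gl1 was above gl4 in 5, and gl4 was above gl8 in 5. The level of gl8 was above that of gl26 in all 6, but in wild type the means differed by only 0.387 FPKM, less than the SD of either gene. Members further apart in the order did separate: gl2 was above gl4, gl8 and gl26, and gl1 above gl8 and gl26, in all 6 libraries and by more than the SD in both genotypes. The exception was gl4 against gl26, whose means in wild type differed by 2.87 FPKM, less than the SD of gl4 there.

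**Figure D1:**
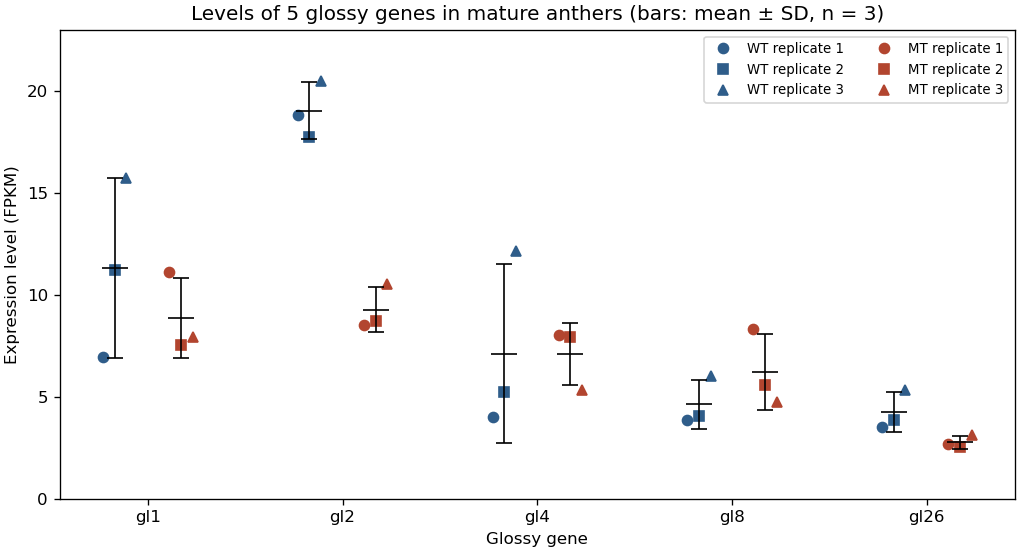
Level of each glossy gene (FPKM, vertical axis) in the 3 wild-type (blue) and 3 mutant (red) libraries, with replicates marked by shape and the mean ± SD in black. The gl2 points of the mutant (8.53 to 10.5 FPKM) lie below all wild-type points (17.8 to 20.5), the gl26 points are also apart, and the points of gl1, gl4 and gl8 overlap in FPKM as deposited.

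Of the 5 genes, gl2 passed the test between genotypes, with a lower level in the mutant. The other 4 missed the threshold, which does not show that they did not differ. Its mean was 9.27 ± 1.11 FPKM in mutant anthers against 19.0 ± 1.4 FPKM in wild type (SD, n = 3 each), a 2.05-fold difference. Its product belongs to the BAHD acyltransferase family and resembles Arabidopsis CER2, a protein needed for the longest wax chains. The gene lies on the minus strand of chromosome 2 (10743536 to 10746206, B73 RefGen_v4). The mutant libraries held 8.53, 8.73 and 10.5 FPKM (replicates 1 to 3), and the wild-type libraries 18.8, 17.8 and 20.5. Every mutant library was below every wild-type library, and the highest mutant value was well under the lowest wild-type value.

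The log2 fold change of gl2, on the log2(FPKM + 1) scale, was -0.97 (SE 0.16, 95% interval -1.33 to -0.60, limma adjusted p = 0.0205 over all tested genes). In the same test, 6.65% of tested genes changed in either direction and 4.75% fell, so 1 of 5 members is not a count that says anything about the list. On this scale 4.05% of tested genes had a lower log2 fold change than gl2. That share was 6.99% with a pseudocount of 0.1 and 7.46% with limma-voom on library totals, since the added 1 shrinks the changes of low genes. The call of gl2 was lost when mutant replicate 1 was left out (limma adjusted p = 0.0917), and likewise for mutant replicate 2 (0.104) and wild-type replicate 1 (0.0560). Its log2 fold change stayed between -1.055 and -0.92 with each library left out, while the number of changed genes overall dropped from 1262 to 54, 50 and 409 in these 3 fits.

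The level of gl26 was also lower in each mutant library than in any wild-type library, but this difference did not pass the test. The gene lies on chromosome 8 (15000230 to 15005452, minus strand), and its product is placed among the proteins of very-long-chain lipid synthesis. Mutant libraries held 2.66, 2.52 and 3.10 FPKM, and wild-type libraries 3.53, 3.87 and 5.35. The genotypes did not overlap, though mutant replicate 3 and wild-type replicate 1 lay close together. Its log2 fold change was -0.47 (SE 0.18, 95% interval -0.89 to -0.047, limma adjusted p = 0.142).

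Such a separation was common in these libraries: 28.6% of tested genes had every mutant library below every wild-type library, and 7.27% had every mutant library above. In FPKM as deposited, 2 of the 5 members (gl2 and gl26) lay below and 0 above. The same comparison of rescaled libraries, added after seeing the data, left gl2 and gl26 below and put gl8 above. With median-of-ratios scaling, 14% of tested genes lay below and 16.7% above, and with upper-quartile scaling 18.6% and 12.3%. The genes differ in how much of the gene was counted. Reads of gl26 were counted over 4937 of its 5223 bp, 94.5% of the span, against 47.4% for gl2 and 44.1% for gl1. The FPKM of gl26 is an average over a length close to the whole gene. Whether the counted share bears on its level was not tested.

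The gene gl8 pointed the other way without passing the test. It encodes the ketoacyl reductase that carries out the second step of each elongation cycle, and it lies on chromosome 5 (185769105 to 185772037, minus strand). Levels in mutant libraries were 8.33, 5.60 and 4.76 FPKM, while the wild-type libraries 3.84, 4.05 and 6.02. In FPKM as deposited the groups overlapped, with wild-type replicate 3 above mutant replicates 2 and 3. The log2 fold change was 0.35 (SE 0.24, 95% interval -0.20 to 0.89, limma adjusted p = 0.361), higher than that of 89.4% of tested genes. After median-of-ratios scaling the lowest mutant value was 5.12 and the highest wild-type value 5.01, so the groups just separated. The log2 fold change was then 0.58 (95% interval 0.10 to 1.06, limma adjusted p = 0.141). With upper-quartile scaling these values were 5.12 and 5.06, and the log2 fold change was 0.49 (95% interval 0.024 to 0.96, limma adjusted p = 0.185). A close paralogue, gl8b, is named in the RefSeq table on chromosome 4. How the authors' counting treated reads that match both copies is not stated, so the gl8 level is uncertain to that extent.

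For gl4 no difference between genotypes was detectable. It encodes a ketoacyl-CoA synthase, the enzyme that opens each elongation cycle, and resembles Arabidopsis CER6 (CUT1). It lies on chromosome 4 (169781767 to 169783224, plus strand) and was counted over its full 1458 bp. The mutant libraries held 8.03, 7.93 and 5.33 FPKM and the wild-type libraries 4.01, 5.21 and 12.1. Wild-type replicate 3 was the highest of the 6 libraries and wild-type replicate 1 the lowest, so the wild-type group spanned the mutant group.

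Mean gl4 levels were 7.10 ± 1.53 FPKM in mutant and 7.12 ± 4.39 FPKM in wild-type anthers (SD, n = 3 each). The log2 fold change was 0.11 (SE 0.35, 95% interval -0.70 to 0.91, limma adjusted p = 0.861), an interval that leaves room for changes in either direction. Without wild-type replicate 3 it was 0.52 (SE 0.22, limma adjusted p = 0.172), with the mutant libraries all above both remaining wild-type libraries. The gap was narrow, with 5.33 FPKM in mutant replicate 3 and 5.21 in wild-type replicate 2. The share of tested genes that separate in this way was not counted. The sign of the gl4 log2 fold change turned when wild-type replicate 1 (-0.18) or replicate 2 (-0.021) was left out.

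For gl1 the genotypes overlapped as well. Its product is a membrane protein of the family of Arabidopsis CER3 (WAX2), which acts in alkane formation, and the gene lies on chromosome 7 (122228805 to 122234943, plus strand). The mutant libraries held 11.1, 7.55 and 7.94 FPKM and the wild-type libraries 6.96, 11.2 and 15.8. The wild-type group held both the lowest and the highest value. The log2 fold change was -0.27 (SE 0.28, 95% interval -0.92 to 0.38, limma adjusted p = 0.552), which ran from -0.55 without wild-type replicate 1 to -0.016 without wild-type replicate 3.

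Across the list, 3 log2 fold changes were negative (gl1, gl2 and gl26) and 2 positive (gl4 and gl8), with a median of -0.27 beside -0.20 for all tested genes. Because the whole distribution shifts with the scaling of the libraries, that median is given beside the genes. The tests and calls are against no change and not against the median. With median-of-ratios scaling, which sets the median of all tested genes at 0.025, gl2 was at -0.71 (limma adjusted p = 0.0413), gl26 at -0.25 (0.353), gl1 at -0.017 (0.975), gl4 at 0.35 (0.531) and gl8 at 0.58 (0.141); 2.16% of tested genes fell. With upper-quartile scaling gl2 was at -0.81 (limma adjusted p = 0.0285), where 3.14% fell. The call of gl2 also held with limma-voom on recovered reads, at -1.04 with library totals (adjusted p = 0.0206) and -0.76 with median-of-ratios scaling (adjusted p = 0.0384), where 5.37% and 2.04% of tested genes fell. No member changed sign between these scalings.

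**Figure D2:**
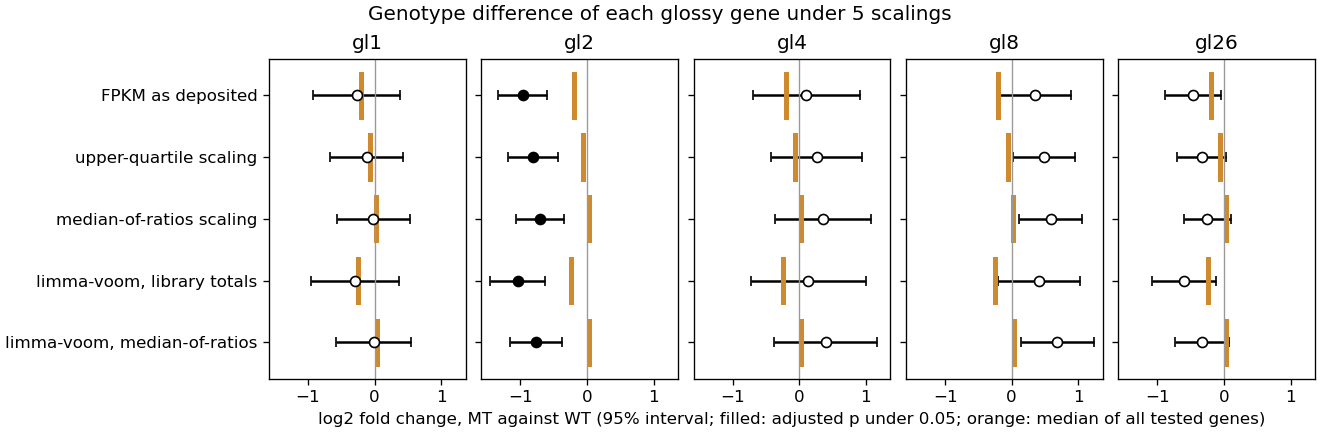
Log2 fold change of each glossy gene, mutant against wild type, under 5 scalings, with 95% intervals, filled points where the adjusted p was under 0.05, and the median of all tested genes in orange. In each of the 5 rows gl2 is filled and left of the orange mark, while gl1 stays beside it (-0.27 against -0.20 as deposited).

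**Figure D3:**
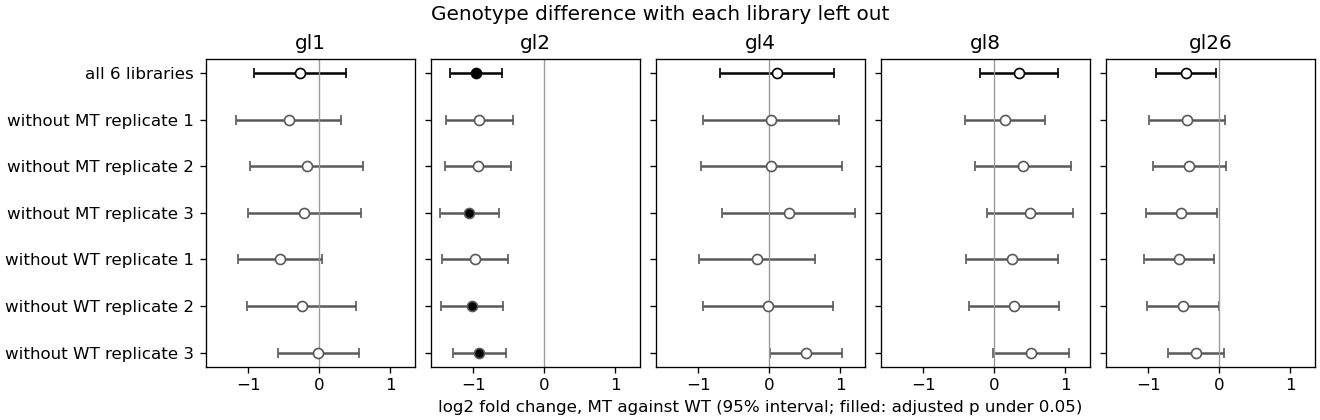
The same log2 fold changes with all 6 libraries (top row) and with each library left out (other rows), with 95% intervals and filled points where the adjusted p was under 0.05. The gl2 values stay between -1.055 and -0.92 but are filled in only 3 of the 6 rows with a library left out, and gl4 moves from -0.18 to 0.52.

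Ratios between glossy genes within a library do not depend on how the library was scaled. They were compared between genotypes for each pair of members, and none of the pairs passed the test. Of the 10 pairs, 4 had ratios that did not overlap between genotypes: gl2 to gl8, gl8 to gl26, gl1 to gl8 and gl2 to gl26. With 3 libraries against 3, an exact two-sided permutation test cannot go below p = 0.1, which is what these 4 pairs gave (adjusted p = 0.25 over the 10 pairs). Separation was common for ratios too: 39.7% of the other tested genes had a ratio to gl8 that was lower in every mutant library than in every wild-type library. For ratios to gl26, 31.6% were higher in this way, the direction of gl8 to gl26. A further 4.7% were lower, the direction of gl2 to gl26. This share depends on taking gl26 as the reference, and only 4.05% of tested genes had a lower log2 fold change than gl2. It is therefore not read as a result about that pair. Such shares are not given here for ratios to gl1, gl2 or gl4. The count of 4 pairs is therefore not read as a result about the members. The pairs share genes, and the 4 all contain gl8 or gl2, so they are not separate results.

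The widest difference was between gl2 and gl8. In wild type gl2 was 4.91, 4.38 and 3.41 times the level of gl8 (replicates 1 to 3), and in the mutant 1.02, 1.56 and 2.21 times. Both genes were thus at about equal levels in mutant replicate 1. The mean log2 ratio was 2.06 ± 0.27 in wild type against 0.61 ± 0.56 in mutant libraries (SD, n = 3 each), a 2.75-fold shift. With each library left out, the difference ran from -1.73 to -1.17 on the log2 scale. The shift lies in the direction that 39.7% of tested genes show against gl8.

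The ratio of gl8 to gl26 was higher in every mutant library. Wild-type libraries had 1.09, 1.05 and 1.12 times as much gl8 as gl26, and mutant libraries 3.13, 2.23 and 1.53 times. On the log2 scale the mean was 0.12 ± 0.051 in wild type against 1.14 ± 0.51 in mutant libraries (SD, n = 3 each), a 2.03-fold shift. Counting error alone gives an SD of 0.12 to 0.15 for this log2 ratio in a wild-type library, more than the SD of the 3 libraries, so their closeness says nothing about the genes.

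For gl1 to gl8, ratios were 1.81, 2.77 and 2.62 in wild type and 1.34, 1.35 and 1.67 in the mutant. For gl2 to gl26 they were 5.34, 4.59 and 3.83 in wild type and 3.21, 3.47 and 3.40 in the mutant, with the smallest spread of any pair there. Counting error alone gives an SD of at least 0.095 for this log2 ratio in any library. The SD of the 3 mutant libraries was less, 0.059, so their closeness says nothing about the genes. In the remaining 6 pairs the genotypes overlapped, with exact permutation p from 0.2 to 0.6. The ratio of gl4 to gl8 had the smallest difference of the 10 pairs, at 0.48 ± 0.49 in wild type against 0.20 ± 0.28 in mutant libraries on the log2 scale (SD, n = 3 each).

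**Figure D4:**
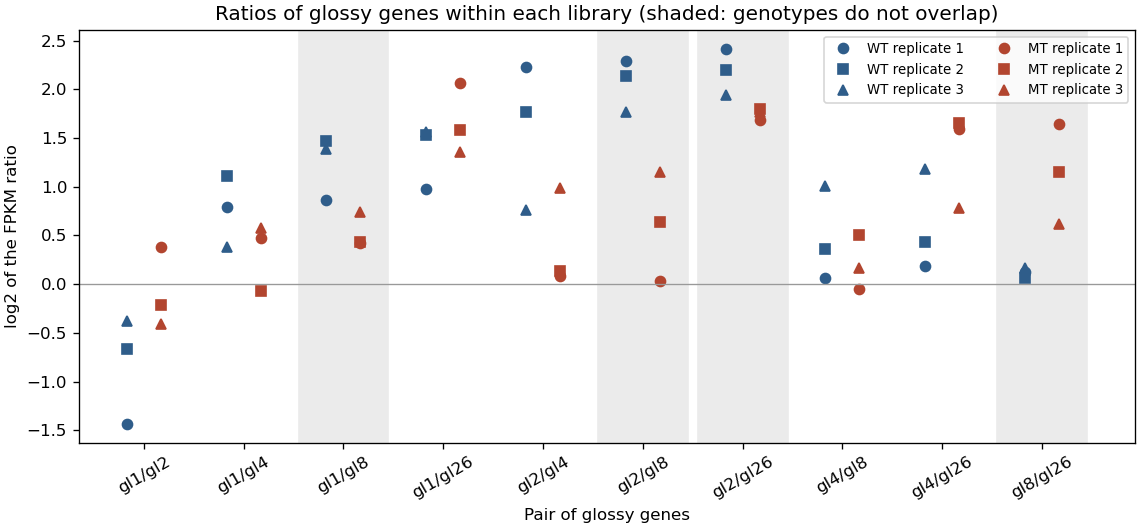
Log2 of the FPKM ratio of each of the 10 pairs of glossy genes (horizontal axis) in every library, wild type in blue and mutant in red, with replicates marked by shape. The 4 shaded pairs, in which the genotypes do not overlap, contain gl8 or gl2, and the 3 wild-type points of gl8 to gl26 lie at 1.05 to 1.12 on the linear scale, closer than counting error gives.

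The make-up of the glossy signal gives the same values as shares. The 5 genes together had 46.4 ± 11.9 FPKM in wild type against 34.2 ± 3.9 FPKM in mutant libraries (SD, n = 3 each). The genotypes overlapped, with sums of 38.7, 32.3 and 31.7 FPKM in the mutant against 37.2, 42.1 and 59.8. The share of gl2 in this sum was 50.7, 42.2 and 34.3% in wild type and 22.1, 27.0 and 33.3% in the mutant. Mutant replicate 3 and wild-type replicate 3 were thus close to each other. The share of gl8 was 10.3, 9.62 and 10.1% in wild type and 21.5, 17.3 and 15.0% in the mutant. Shares in a library depend on each other, so a lower share of gl2 raises the combined share of the rest, though not of each gene. The mean share of gl26 was 9.21% in wild type and 8.15% in the mutant, and that of gl4 14.5% and 20.7%. The mean share of gl1 was 23.9% in wild type and 25.7% in the mutant, though its mean level was 11.3 and 8.88 FPKM. The separate gl8 shares are therefore no measure of gl8 itself, whose deposited levels overlapped. In all 3 wild-type libraries and in mutant replicates 2 and 3 gl2 was the highest of the 5 genes, and in mutant replicate 1 gl1 was.

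**Figure D5:**
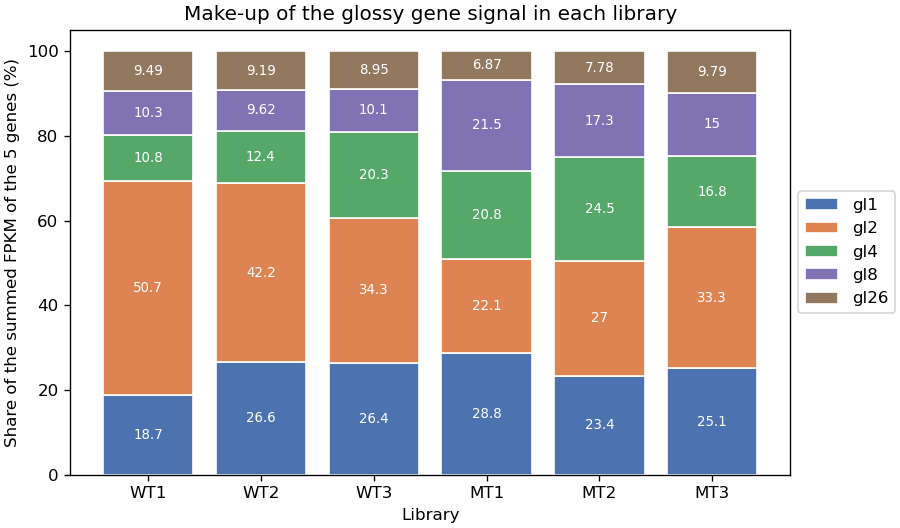
Share of each glossy gene in the summed FPKM of the 5 genes (%, vertical axis) in each library. The gl8 segment is 9.62 to 10.3% in wild type and 15.0 to 21.5% in the mutant, and the gl2 segment is 34.3 to 50.7% in wild type and 22.1 to 33.3% in mutant libraries. Segments of a bar depend on each other, and the gl8 levels overlap in FPKM as deposited.

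Several members were high together in single libraries. In FPKM as deposited, each of the 5 genes was at its highest wild-type level in replicate 3. That library had the largest median-of-ratios scale factor (1.201, against 1.018 and 1.093 in wild-type replicates 1 and 2). After this scaling gl2 was highest in wild-type replicate 1 (18.5, against 17.1 in replicate 3), and the other members stayed highest in replicate 3. The share of all tested genes highest there was not counted. Deposited levels in wild-type replicate 3 were set against the mean of wild-type replicates 1 and 2. The ratio was 2.63 for gl4, 1.73 for gl1, 1.53 for gl8, 1.45 for gl26 and 1.12 for gl2, beside a median of 1.13 over tested genes. Without wild-type replicate 3 the log2 fold change of gl1 went from -0.27 to -0.016 and that of gl4 from 0.11 to 0.52. In mutant replicate 1, gl8 was 1.61 times, gl1 1.44 times and gl4 1.21 times the mean of mutant replicates 2 and 3. The median of tested genes was 1.04 there, and gl26 (0.947) and gl2 (0.886) were below it.

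The members were read 101 to 753 times in a library, which corresponds to a counting error of 3.64 to 9.95% of the value. The coefficient of variation between wild-type libraries was 61.6% for gl4, 38.9% for gl1, 25.9% for gl8, 22.8% for gl26 and 7.27% for gl2. Between mutant libraries it was 21.6% for gl4, 22.2% for gl1, 29.9% for gl8, 11.1% for gl26 and 11.9% for gl2. None of the 5 genes overlapped another listed gene, and the nearest listed neighbour was 245 bp away, at gl8.

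The transcripts most like each member over the 6 libraries were sought by Pearson's r of log2(FPKM + 1), as a description without a test, since many genes reach a high r over 6 libraries. The likest to gl2 was a gene on chromosome 4 (197537383 to 197538393, r = 0.9992), with 0.90, 0.958 and 1.23 FPKM in mutant libraries against 2.23, 2.11 and 2.36 in wild type. For gl26 it was a gene on chromosome 3 (187050348 to 187052568, r = 0.998), with 16.9, 15.5 and 18.6 against 21.8, 24.3 and 35.1 FPKM. An r of at least 0.95 was reached by 641 tested genes (3.38%) for gl2 and by 713 (3.76%) for gl26. Fewer genes, 59 (0.311%), reached it for gl8, 95 for gl4 and 98 for gl1.

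The likest to gl8 was on chromosome 9 (16243543 to 16247283, r = 0.9887), with 38.9, 29.6 and 26.3 FPKM in mutant libraries against 20.8, 21.2 and 31.3 in wild type. For gl4 it was on chromosome 3 (150720597 to 150721538, r = 0.9968), where wild-type replicate 3 was again highest, at 19.1 FPKM. For gl1 it was on chromosome 4 (203909773 to 203910891, r = 0.9959), at 0.621 to 2.69 FPKM. At levels this low, as also for the gene likest to gl2, counting error is a larger part of the value. The files do not pair the identifiers of any of the likest genes with names.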

How the data were processed

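The 6 deposited tables give the authors' FPKM and each gene's position, per the file headers. Per the submitters' processing notes, the build was B73 RefGen_v4 and the tools were HTSeq 0.6.0, HISAT2 2.1.0 and Bowtie2 2.2.3, with no roles named. Filters, the strand setting and the annotation release are unstated. The values are whole multiples of 1 read, which gave library totals of 16845656 to 17759978 reads and whole reads and counted lengths for 31465 genes (within 0.0001 reads plus 3e-09 per read), 99.6% of each total. Reads and length of a gene can both be too low by a common factor. Counting errors cover counting only.

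Genes with at least 1 FPKM in at least 3 libraries were fitted on log2(FPKM + 1) by limma 3.58.1 (R 4.3.3) with a mean-dependent spread, two-sided tests and Benjamini-Hochberg adjustment over all 18984 tested genes. This scale understates changes of low genes. Ratios of members were taken without a pseudocount and compared by exact permutation (scipy 1.17.1). Groups and replicate numbers came from the labels, which name no separate plants or pools. The p-values therefore describe only how these samples vary, and part of that may be technical. The members, lists and tests were chosen with earlier results of these data known.

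Named genes were the 5 members and, for each, the tested gene with the highest correlation. The planned list of other glossy and elongase genes could not be matched: 0 of the 30950 identifiers beginning with Zm00001d are in the RefSeq table (assembly Zm-B73-REFERENCE-NAM-5.0), so it was not analysed here. Its 9 other glossy names had 2 entries there. Promoter motifs were not analysed here, and no sequence is shown.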

Additional observations from a re-analysis of the deposited data

How the results depend on the processing

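Alternatives were run 1 at a time on the members and on the counts of changed genes. Of 69 member values, 63 had the same direction and call, 4 lost the call, all for gl2, and 2 changed sign, both for gl4 (-0.18 and -0.021, when wild-type replicate 1 or 2 was left out). For gl2 the log2 fold change was -0.97 with the replicate block (limma adjusted p = 0.0516) and -1.055 to -0.92 without 1 library (adjusted p 0.0242 to 0.104). Deviations from the group means correlated at 0.012, -0.384 and -0.328 between libraries of the same number, which gives no hint of pairing. Without 1 library, gl1 ran from -0.55 to -0.016, gl4 from -0.18 to 0.52, gl8 from 0.15 to 0.52 and gl26 from -0.57 to -0.32. Against 1262 changed genes (361 raised, 901 lowered), no filter gave 292 (125 and 167), at least 5 FPKM in 3 libraries 748 (230 and 518; gl26 lay below this filter), the replicate block 715 (247 and 468), median-of-ratios scaling 1071 (661 and 410), upper-quartile scaling 1156 (560 and 596) and limma-voom with median-of-ratios scaling 1066 (679 and 387). Leaving out 1 library gave 50 to 1373 changed, 25 to 634 raised and 24 to 739 lowered genes, with fewer samples. The cause of the other shifts was not tested, beyond the shift of the median that each scaling makes by construction. A pseudocount of 0.1 or 1 (the latter added after seeing the data) or leaving out 1 library changed the sign of none of the 10 ratio differences. The difference of gl4 to gl8 nearly vanished, from -0.274 with all libraries to -0.0075 without wild-type replicate 3. With 101 to 753 reads per member and library, depth limited single values to the counting errors above.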
